A study of Mus musculus with 6 samples.

Results

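The genes described here are 10 forkhead transcription factors of the Foxc, Foxf, Foxl, Foxp, Foxd and Foxs branches (Foxc1, Foxc2, Foxf1, Foxf2, Foxl1, Foxp1, Foxp2, Foxp4, Foxd1 and Foxs1), out of 29616 genes measured. They were found by matching Ensembl gene identifiers to symbols, and the family was chosen by its readout, because Foxc2 was about 10-fold higher with dexamethasone. Since the members were selected on the same contrast, their values are given as a description, with the standard error of each difference and no p-value. The counts of members past the limits of a call are a description too, and nothing is read from them. RNA sequencing compared 3 libraries labelled Control with 3 labelled Dexamethasone Treated, all from bone cells of C57BL/6 mice, to ask how a synthetic glucocorticoid alters cells of the osteoblast lineage. Treated mice received 0.08 µg/g dexamethasone daily for 4 weeks from 8 weeks of age, and saline was the control treatment of this osteoporosis model. The labels name the material only as bone cells, the study describes them as Osteocalcin-positive cells from bones freed of marrow, and it is not given whether a library pooled several mice or came from a separate animal, so that p-values measure only the spread between these samples. Between 72596611 and 89910728 reads were assigned to genes in each library. Values are normalized counts, that is, reads per gene divided by a size factor of the library, and 1 read was worth between 0.879 and 1.16 normalized counts.

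Forkhead factors bind DNA through a winged-helix domain and either activate or repress nearby genes. Foxc1 and Foxc2 are needed for the skeleton and for blood and lymphatic vessels, whereas Foxf1, Foxf2 and Foxl1 are mesenchymal factors that respond to hedgehog signals. Foxp proteins pair with each other through a leucine zipper and act largely as repressors, also in cells of the bone lineage.

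The bone cell label was compared with osteoblast genes. All 12 osteoblast markers were measured, and Col1a1, a chain of type I collagen, had 926459.5, 968159 and 991151 normalized counts in the control libraries and 281338, 254901 and 247337 in the dexamethasone libraries. Bglap, one of the Osteocalcin genes, had 98.2, 102 and 122 in controls and 9.54, 11.99 and 15.1 with dexamethasone. Bglap2, also on the list, had 339, 333 and 300 in controls and 29.6, 30.5 and 33.7 with dexamethasone. Whether reads that match both genes were left out of these counts was not tested. Of the 12 markers, 9 were called lower and 2 higher, beside 10.6% and 11.7% of all 17442 genes tested. Their median log2 fold change was -1.54 against 0.001 over all genes. In these libraries fewer cells of a type and less RNA per cell cannot be told apart. The 2 higher genes, Spp1 (osteopontin) and Dmp1, rose from 33595 ± 988 to 1279674 ± 29570.5 and from 38.5 ± 2.66 to 5639 ± 326 normalized counts (SD, n = 3; limma adjusted p = 1.43e-29 and 2.12e-28). An annotated gene on the same strand, Gm42793, covers 18.75% of the exon bases of Spp1. Phex, the single marker not called and named after its values were seen, had means of 185 in controls and 278 with dexamethasone. Col1a2, Sparc and Bglap2, also named by their level or change, were 2.06-fold, 2.505-fold and 10.3-fold lower (limma adjusted p = 1.13e-12, 3.78e-18 and 1.8e-16), and Col1a2 was not called after quantile normalization (log2 fold change -0.995). A gene was called when its adjusted p was under 0.05 and its log2 fold change at least 1 in size, in a fit over all genes with a mean of at least 10.

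Foxc2 (ENSMUSG00000046714), the gene that led to the choice of the family and a regulator of vessel and skeletal development, had 298, 335 and 357 normalized counts in the control libraries and 3508, 3218 and 3217 in the dexamethasone libraries. Every dexamethasone library lay far above every control, and the 3 libraries of each group were close to each other. The group means were 329.6 ± 29.98 and 3314 ± 168 (SD, n = 3), a 10.1-fold difference with a log2 fold change of 3.33 (standard error 0.0631). Its closest relative Foxc1 (ENSMUSG00000050295), which shares roles in somite, skull and vessel formation, had a small difference. It had 2147, 2281 and 2112 normalized counts in controls and 2168, 1794 and 1986 with dexamethasone. The groups overlapped, since dexamethasone replicate 1 exceeded control replicates 1 and 3, and the log2 fold change was -0.14 (standard error 0.0549), with -0.28 after quantile normalization and -0.07 without dexamethasone replicate 2.

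Foxs1 (ENSMUSG00000074676), a forkhead gene known from pericytes, smooth muscle and developing sensory neurons, had 453, 453 and 385 normalized counts in controls and 6389, 6039 and 6491 with dexamethasone. Its libraries separated completely, and among the members its difference was the widest in the deposited normalization and under every alternative tried. The means were 430.2 ± 39.2 and 6306 ± 237 (SD, n = 3), a 14.7-fold difference and a log2 fold change of 3.87 (standard error 0.0566).

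**Figure D1:**
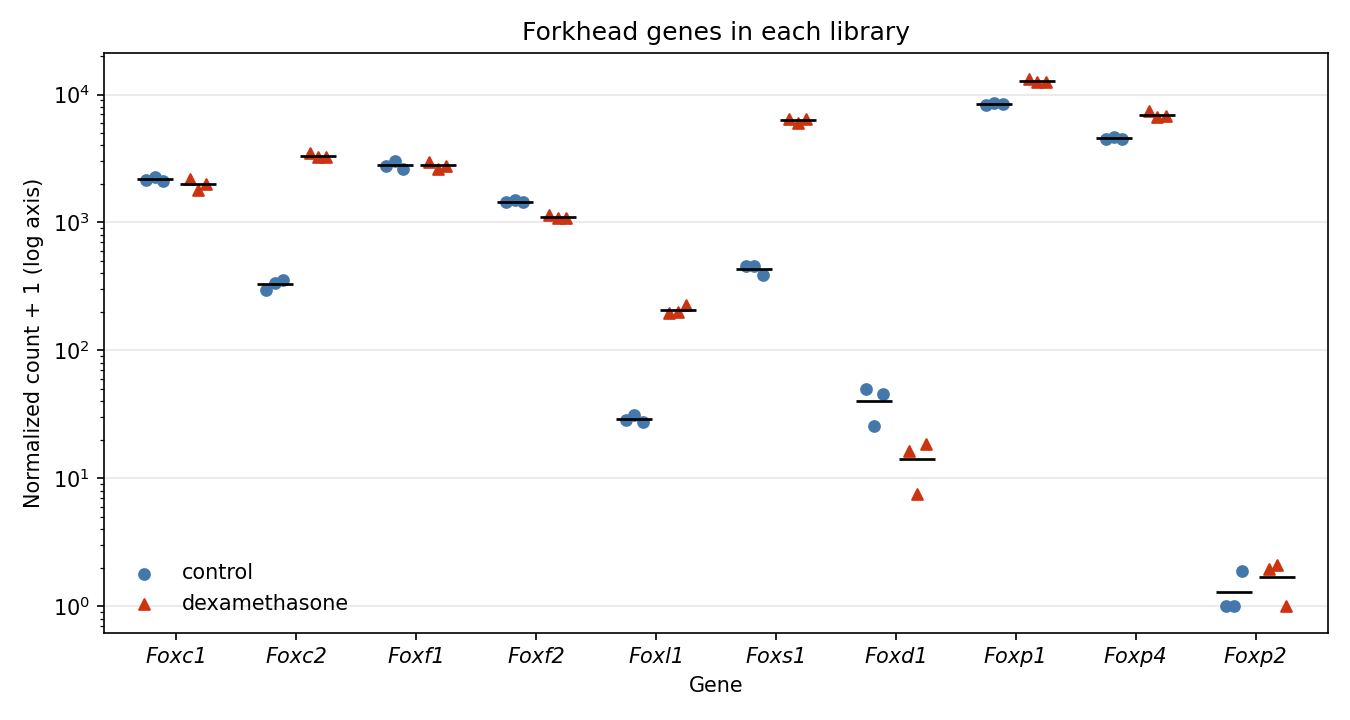
Normalized counts (plus 1, log axis) of the 10 forkhead genes in the 3 control libraries (circles) and 3 dexamethasone libraries (triangles), with black bars at the group means. Foxc2, Foxl1 and Foxs1 sit well apart between groups, Foxf1 and Foxc1 overlap, and Foxp2 is at the bottom with at most 1 read in any library.

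Among the factors of the lung and gut mesenchyme, Foxl1 (ENSMUSG00000097084), a marker of the stromal cells beneath the gut epithelium, was low in controls, at 27.5, 30.3 and 26.4 normalized counts. With dexamethasone it reached 194, 199.5 and 227. No library of either group came near the other group. The means were 28.1 ± 2.04 and 207 ± 17.7 (SD, n = 3), 7.36-fold apart, with a log2 fold change of 2.83 (standard error 0.165). Foxf1 (ENSMUSG00000042812), required for lung vessels and the gut wall, had 2766, 2997 and 2611 normalized counts in controls and 2988, 2632 and 2765 with dexamethasone. The 2 ranges lay over each other, and the log2 fold change was 0.002 (standard error 0.0507), turning to -0.11 at equal library totals and -0.15 with quantile normalization. Foxf2 (ENSMUSG00000038402), a paralog active in palate, gut and brain pericytes, had 1447, 1485 and 1436 normalized counts in controls and 1148, 1078 and 1076 with dexamethasone. All 3 dexamethasone libraries lay below all 3 controls, by a modest amount. It was 1.32-fold lower with dexamethasone, with a log2 fold change of -0.40 (standard error 0.0504).

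Foxd1 (ENSMUSG00000078302), known from the kidney stroma, was the member measured at the lowest level among those that entered the fit. Its normalized counts were 48.7, 24.5 and 44.8 in controls, from 53, 25 and 51 reads, and 15.3, 6.54 and 17.4 with dexamethasone, from 16, 6 and 15 reads. The dexamethasone libraries were all below the controls, although replicate 2 was the low library of both groups. It was 3.005-fold lower, with a log2 fold change of -1.56 (standard error 0.353), the widest error of the 9 members in the fit, and it did not enter a fit that asked for at least 10 normalized counts in every library.

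Of the Foxp genes, Foxp1 (ENSMUSG00000030067), a repressor expressed in lymphocytes, heart and mesenchymal stem cells, had 8254, 8640.2 and 8502 normalized counts in controls and 13137, 12475 and 12557 with dexamethasone. Foxp4 (ENSMUSG00000023991), which acts beside Foxp1 in lung and gut epithelium, had 4464, 4651 and 4528 in controls and 7411, 6714 and 6786 with dexamethasone. For both genes the lowest dexamethasone library was above the highest control. The fold differences were similar, 1.503 for Foxp1 and 1.53 for Foxp4, with log2 fold changes of 0.59 (standard error 0.0355) and 0.61 (standard error 0.0401), both short of the size set for a call. Foxp2 (ENSMUSG00000029563), a gene of the brain and lung, had 0, 0 and 1 reads in controls and 1, 1 and 0 with dexamethasone. At that depth no difference could be detected, and Foxp2 did not enter the fit.

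In all, 9 of the 10 members passed the filter on low values. By the size and adjusted p set for a call, 4 of the 9 were past it in either direction, beside 22.3% of all genes tested, with 3 higher (Foxs1, Foxc2 and Foxl1) beside 11.7% and 1 lower (Foxd1) beside 10.6%. The other 5 (Foxc1, Foxf1, Foxf2, Foxp1 and Foxp4) were not. The groups did not overlap for 7 of the 9 members, beside 74.7% of all genes. The median log2 fold change of the 9 was 0.588, beside 0.001 for all genes, and because the family was chosen on this contrast nothing is read from these shares. Scaling all libraries to the same total moved the median of all genes by -0.113, turned the balance of the calls from 2037 higher and 1857 lower to 1775 higher and 2163 lower, and the members moved with it, to 3.21 for Foxc2, 3.76 for Foxs1, 0.47 for Foxp1, 0.50 for Foxp4, -0.25 for Foxc1 and -0.52 for Foxf2.

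Levels of different genes were compared as normalized counts per kilobase of exon. In controls Foxf1 stood first, with 1156 ± 80.5 (SD, n = 3), followed by Foxp4 with 923 ± 19.2. Foxf2 (616 ± 11.0) and Foxp1 (616 ± 14.2) overlapped and could not be ordered, and Foxc1 (373 ± 15.2), Foxs1 (328 ± 29.9), Foxc2 (121 ± 11.0), Foxl1 (10.4 ± 0.754) and Foxd1 (7.76 ± 2.57) followed, each below the range of the gene before it, with Foxp2 last. The order was another with dexamethasone. Foxs1 came first, at 4810.2 ± 181, above Foxp4 at 1415 ± 77.8. Foxc2 (1216 ± 61.6) and Foxf1 (1157 ± 74.3) overlapped after these, and Foxp1 (925 ± 26.2), Foxf2 (466 ± 17.5), Foxc1 (339 ± 32.0), Foxl1 (76.4 ± 6.53) and Foxd1 (2.58 ± 1.14) came after them without overlap between neighbours. When the longest transcript was taken as the length, Foxp1 was at 1179.5 per kilobase and Foxp4 at 1137 in controls, so that Foxp1, Foxf1 and Foxp4 all lay near the top there, while Foxs1 still led with dexamethasone, followed by Foxp1 at 1773 and Foxp4 at 1743, which overlapped.

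The make-up of the summed transcripts of the 10 members differed between groups. Foxs1 supplied 8.41%, 8.01% and 7.28% of the summed per-kilobase level of the 10 genes in control replicates 1, 2 and 3, and 45.2%, 46.1% and 47.4% with dexamethasone. Other forkhead genes are not in this sum, such as Foxm1 (mean 549 per kilobase in controls and 3186 with dexamethasone), Foxk2 (1722 and 2934) and Foxo3 (1761 and 1380). The shares take all annotated exons as the length and were not computed with the longest transcript. The share of Foxf1 was smaller with dexamethasone, 27.9%, 28.7% and 26.8% against 11.5%, 10.9% and 11.0%, although its own level overlapped between groups. Within the Foxc pair, the per-kilobase level of Foxc2 was 0.297, 0.315 and 0.362 of that of Foxc1 in controls and 3.47, 3.85 and 3.47 times that of Foxc1 with dexamethasone, so the more abundant transcript of the pair was Foxc1 in each control and Foxc2 in each treated library. The ratio of Foxp1 to Foxp4 overlapped between groups, at 0.662, 0.666 and 0.673 in controls and 0.635, 0.666 and 0.663 with dexamethasone. With the longest transcript as the length it was 1.03, 1.035 and 1.046 in controls and 0.988, 1.035 and 1.031 with dexamethasone, so which of the 2 is more abundant depends on the length taken.

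**Figure D2:**
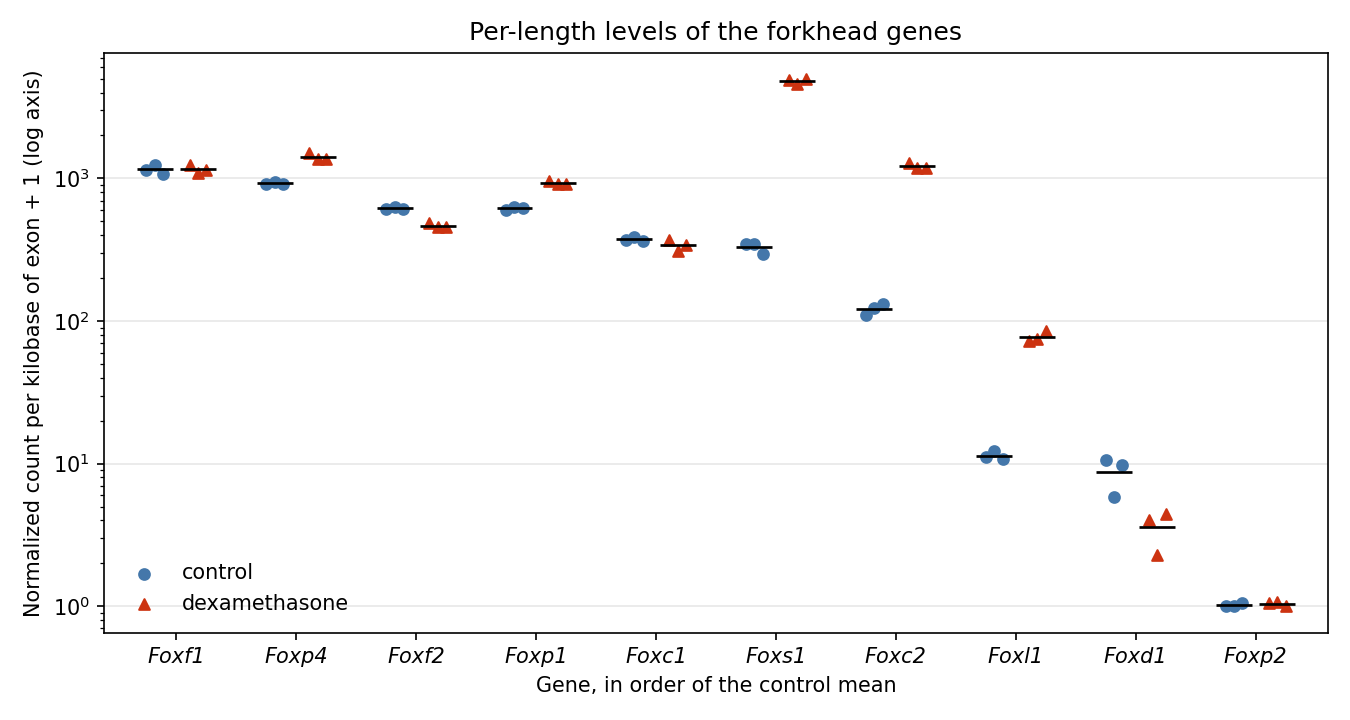
Normalized counts per kilobase of exon (plus 1, log axis) of the 10 genes, ordered by the control mean, in control (circles) and dexamethasone (triangles) libraries, with black bars at the group means. Foxs1 goes from 328 to 4810.2 and Foxc2 from 121 to 1216, while Foxf1 is near 1156 in both groups.

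Several members are neighbours on the chromosome. In the GENCODE M21 annotation, used here for gene order and not for positions, the measured genes Foxf1, Mthfsd, Foxc2 and Foxl1 follow each other on chromosome 8, and Foxq1, Foxf2 and Foxc1 lie together on chromosome 13. Another 2 annotated genes inside the first group and 4 inside the second were not analysed here. On chromosome 8 the difference was large for Foxc2 and Foxl1, adjacent among the measured genes, and not for Foxf1 on their left. Fendrr, the long noncoding RNA next to Foxf1, had 703, 641 and 706 normalized counts in controls and 683, 752 and 744 with dexamethasone, with overlapping groups (log2 fold change 0.09 ± 0.0653, standard error; limma adjusted p = 0.233; -0.0262 at equal library totals). Mthfsd, between Foxf1 and Foxc2, had 2639 ± 88.9 normalized counts in controls and 1859.7 ± 95.5 with dexamethasone (SD, n = 3), -0.51 on the log2 scale and under the size for a call (limma adjusted p = 5.1e-10). Beyond Fendrr, Cox4i1, a subunit of cytochrome c oxidase, and Emc8, of the membrane protein insertion complex, had log2 fold changes of -0.59 and 0.27 (limma adjusted p = 4.23e-13 and 6.92e-06), that of Emc8 being 0.16 at equal library totals and 0.11 after quantile normalization, and Irf8 was at or under 3 reads in every library. The noncoding genes past Foxl1 were near the floor. The nearest 2, Gm37609 and 5033426O07Rik, were at or under 1 read in each control and had 6, 2 and 8 reads and 5, 10 and 12 reads with dexamethasone, while Gm26815 and Gm26747 were at or under 3 reads throughout.

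On chromosome 13 Foxf2 and Foxc1 differed little. Of the 7 tested neighbours 6 were called lower, beside 10.6% of all genes tested. Foxq1, a forkhead gene of epithelia and hair, had 73.4, 42.1 and 63.3 normalized counts in controls and 13.3, 20.7 and 25.6 with dexamethasone, -1.55 ± 0.275 (standard error) on the log2 scale (limma adjusted p = 2.13e-05). Its groups did not overlap. An annotated gene on the opposite strand, A530084C06Rik, covers 66.07% of its exon bases, and as the strand setting of the count is not given, reads of the 2 genes may be mixed. The noncoding RNA 1700018A04Rik, between Foxq1 and Foxf2, had 441, 439 and 429.7 normalized counts in controls and 120.2, 156 and 160.5 with dexamethasone (limma adjusted p = 1.55e-12). The noncoding genes Gm11377 and Gm11378 beside it changed by -1.44 and -1.57 on the log2 scale (limma adjusted p = 2.09e-07 and 0.00241). Farther out, Gm48662 had 99.2, 116 and 139.7 normalized counts in controls and 5.72, 0 and 2.33 with dexamethasone (limma adjusted p = 1.37e-10), and G630018N14Rik fell by 2.07 on the log2 scale (limma adjusted p = 1.21e-07). On the other side, Gmds, an enzyme of GDP-fucose synthesis, differed by -0.18 on the log2 scale (limma adjusted p = 0.00623; -0.295 at equal library totals). The remaining neighbours, Gm11373, Gm11376, Gm48883, Gm11380 and Gm35732, had means under 10 and were not tested.

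**Figure D3:**
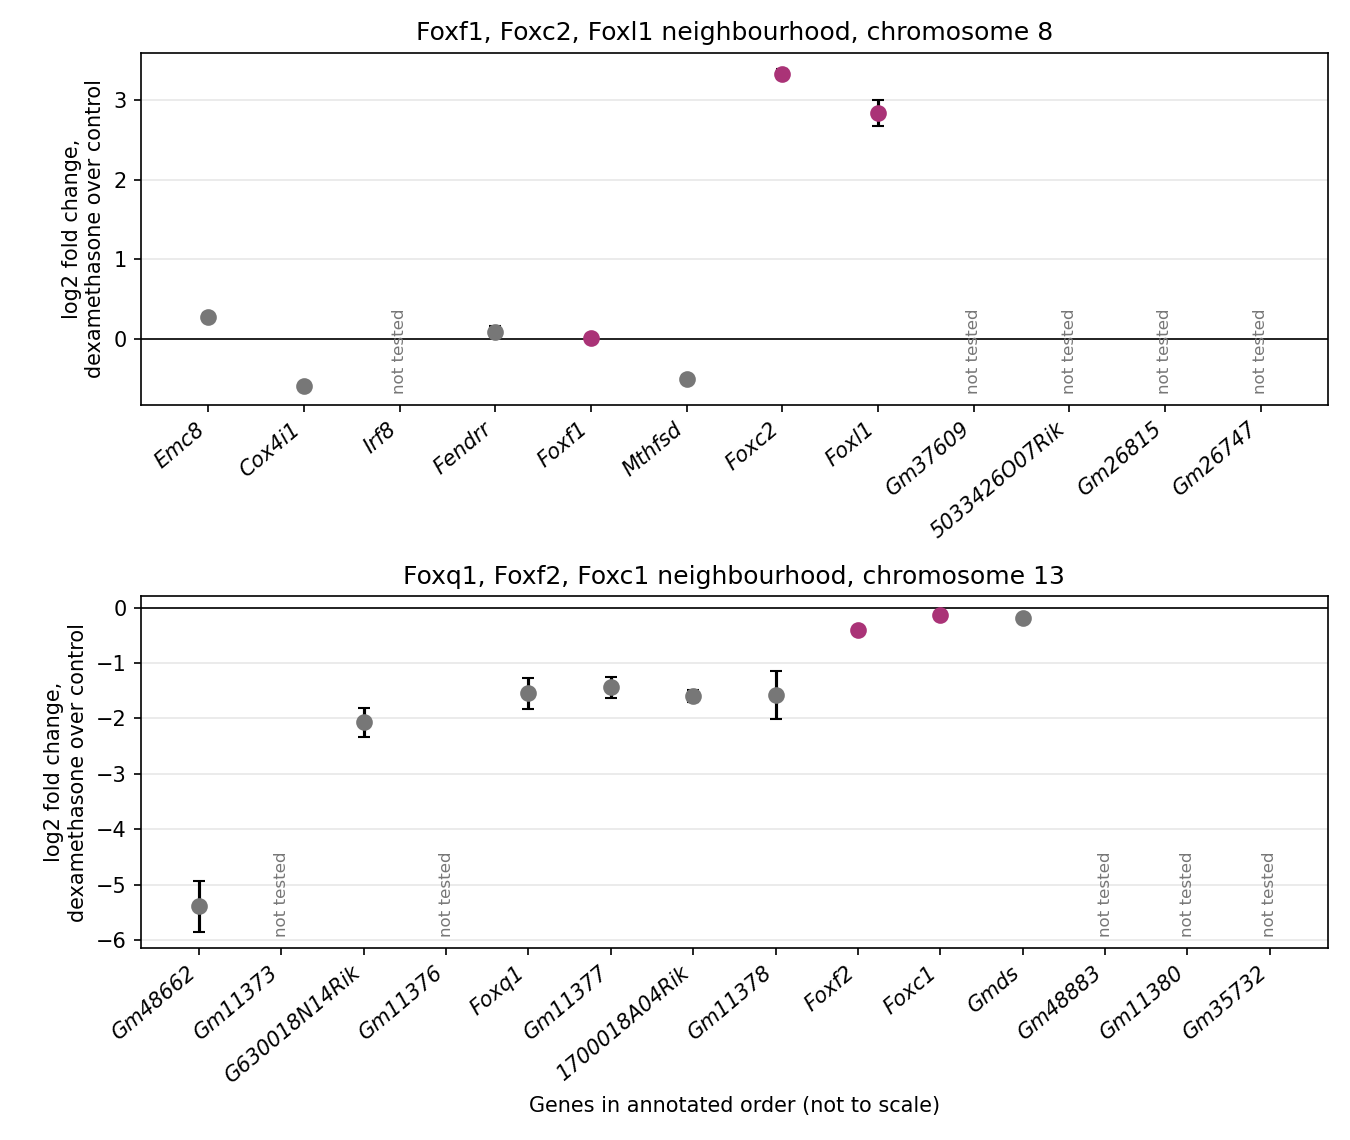
Log2 fold change (dexamethasone over control, n = 3 each) of the genes in and around the forkhead clusters of chromosomes 8 and 13, in annotated order, with members in purple, other genes in grey and bars for the standard error. Foxc2 and Foxl1 stand at 3.33 and 2.83 beside Foxf1 near 0, and the tested genes of chromosome 13 lie below 0, those left of Foxf2 farthest.

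Among 12020 genes with a mean of at least 100, the 5 whose centred log2 profile over the 6 libraries was nearest to that of Foxc2 were Col7a1, Slfn9, Brip1, Ercc6l and Aunip. Their mean absolute differences from Foxc2 were 0.0319, 0.0327, 0.0545, 0.0552 and 0.0563 on the log2 scale. Col7a1, the collagen of anchoring fibrils, had 97.3, 109 and 112 normalized counts in controls and 1117, 1068 and 1004 with dexamethasone, a 10.04-fold difference. Slfn9, of the Schlafen family, had 2053, 2274 and 2256 in controls and 23150.1, 21010.3 and 21014 with dexamethasone. Brip1 and Ercc6l, helicases of DNA repair and mitosis, and Aunip, a partner of Aurora A kinase, were 9.598-fold, 9.88-fold and 10.9-fold higher with dexamethasone. The likeness is a description over 6 libraries.

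The members can be told apart by their transcript sequence in the sense direction, the only direction compared. Every 75-base window of the annotated transcripts of Foxc1, Foxc2, Foxf1, Foxf2, Foxl1, Foxp4, Foxd1 and Foxs1 occurred in no other transcript read in that direction. For Foxp1 98.0% of the windows were unique, the rest being shared with Gm20696 and Gm49348 on the same strand. Matches to the opposite strand were not searched. Foxp2 shared 5 of 16826 windows with Gm46378. The longest stretch of identical bases was 53 between Foxc1 and Foxc2, 41 between Foxf1 and Foxf2 and 35 between Foxp1 and Foxp2. Small annotated RNAs on the opposite strand cover 4.06% of the exon bases of Foxf1 and 4.15% of those of Foxf2.

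RefSeq promoter windows of 300 bases (250 before to 50 after the start, GRCm38.p6) were at hand for 5 members, with 3 windows for Foxp1 and 1 each for Foxc1, Foxd1, Foxf2 and Foxp4. The members without an entry were Foxc2, Foxf1, Foxl1, Foxs1 and Foxp2. The windows were searched on both strands for the palindromic glucocorticoid response element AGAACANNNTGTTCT, for its hexamer AGAACA, which lies within it, and for the forkhead motif GTAAACA, present in 0.00913%, 19.0% and 3.65% of all 32851 windows. None of the 7 windows held any of the 3 motifs, which says only that these letters are not in these windows. Their GC content ran from 48.7% to 75.3%. The windows of Foxp4, which was higher with dexamethasone in all 3 libraries, and Foxf2, which was lower in all 3, are shown as an example of each direction, since of the other members with 1 window Foxc1 overlapped between groups and Foxd1 had under 10 normalized counts in 1 library, at chr17:47924583-47924882 on the minus strand and chr13:31625566-31625865 on the plus strand, with no capitals since no motif was found.
Foxp4: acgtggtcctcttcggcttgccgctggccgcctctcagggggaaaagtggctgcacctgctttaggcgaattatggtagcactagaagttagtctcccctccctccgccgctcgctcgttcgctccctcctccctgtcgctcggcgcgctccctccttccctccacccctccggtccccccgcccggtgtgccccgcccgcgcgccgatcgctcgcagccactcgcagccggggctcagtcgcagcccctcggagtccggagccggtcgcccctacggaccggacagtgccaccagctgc
Foxf2: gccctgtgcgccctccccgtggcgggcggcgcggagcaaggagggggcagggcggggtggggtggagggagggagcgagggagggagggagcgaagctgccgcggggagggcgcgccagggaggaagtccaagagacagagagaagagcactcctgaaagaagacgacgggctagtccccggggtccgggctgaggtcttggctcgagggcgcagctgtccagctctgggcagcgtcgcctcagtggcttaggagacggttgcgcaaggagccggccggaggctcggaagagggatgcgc

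The list of forkhead genes beyond the 10 members held 34, among them Foxd2, Foxd3, Foxd4, Foxl2 and Foxp3 of the same branches, of which 24 were measured and 16 tested. Of the 16, 4 were called higher, 1 lower and 11 not, beside 11.7% of all genes tested called higher and 10.6% lower. The median log2 fold change of the 16 was 0.084 against 0.001 for all genes. Foxm1, the forkhead activator of mitotic genes, had 3105, 3164 and 3202 normalized counts in controls and 19266, 18339 and 17395 with dexamethasone, 2.54 ± 0.0384 (standard error) on the log2 scale (limma adjusted p = 9.12e-26). Its dexamethasone libraries were all above its controls. Foxn1, the thymic epithelial factor, went from 17.3 ± 3.67 to 84.3 ± 17.7 and Foxd2 from 61.6 ± 1.02 to 133 ± 9.74 normalized counts (SD, n = 3; limma adjusted p = 1.05e-08 and 4.93e-07), and the log2 fold change of Foxd2 was 0.99, no longer called, when all libraries had the same total. Foxp3, the factor of regulatory T cells, had 77.1, 40.1 and 46.6 normalized counts in controls and 88.7, 157 and 134 with dexamethasone (limma adjusted p = 2.62e-05), but other annotated genes cover 18.6% of its exon bases on its own strand and 18.7% on the other. Foxq1 was the gene called lower. The genes of the list with the highest mean counts were Foxm1, Foxk2, Foxo3 and Foxk1, and the last 3 had log2 fold changes of 0.77, -0.35 and 0.17 (limma adjusted p = 2.5e-15, 6.25e-08 and 0.000525), none reaching the size for a call. After quantile normalization that of Foxo3 was -0.56 and that of Foxk1 turned to -0.04.

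**Figure D4:**
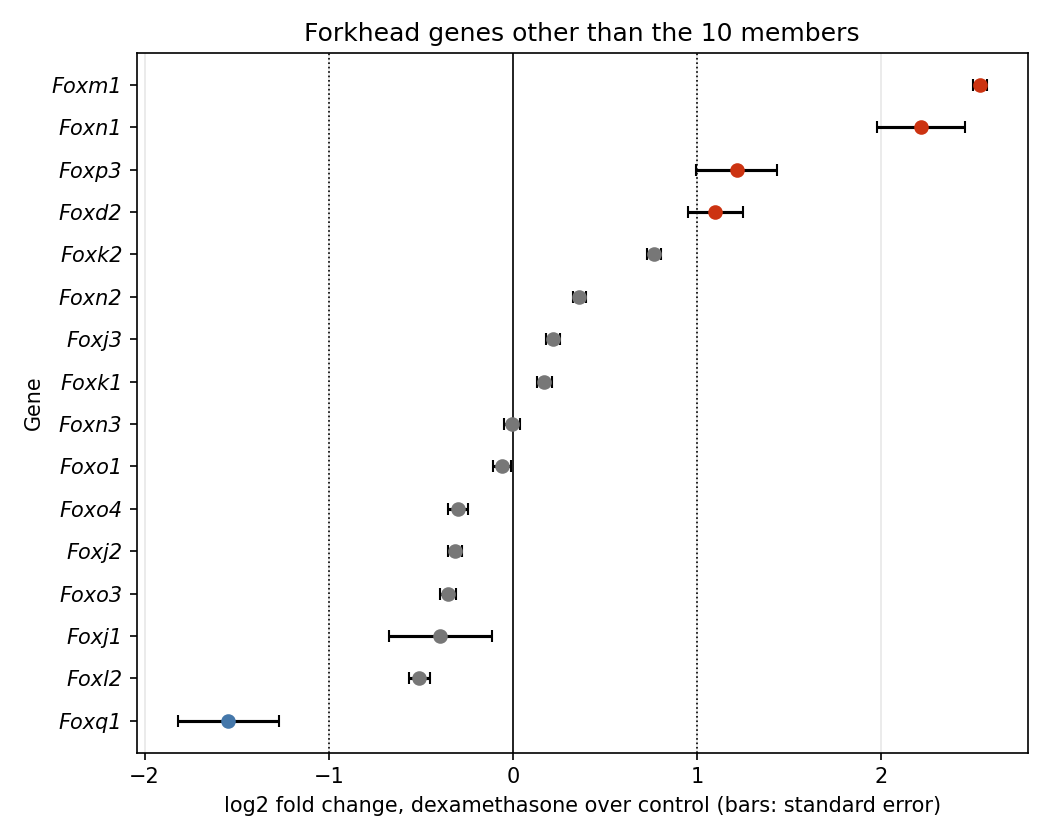
Log2 fold change (dexamethasone over control, n = 3 each) of the 16 tested forkhead genes other than the members, with bars for the standard error and dotted lines at the size set for a call. Red genes were called higher (Foxm1 at 2.54), blue lower (Foxq1 at -1.55), grey not called.

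Genes described as lying downstream of Foxc1 or Foxc2 moved in both directions. Of 20 listed, 16 were tested, with 5 called higher, 3 lower and 8 not, beside 11.7% of all genes tested called higher and 10.6% lower. Their median log2 fold change was 0.327 against 0.001 for all genes. Kitl, the stem cell factor of the marrow niche, had 1950.0, 1964 and 1933 normalized counts in controls and 14352, 14492 and 14487 with dexamethasone (log2 fold change 2.89, limma adjusted p = 2.12e-27). Cxcl12, a chemokine of the same niche, had 5095 ± 219.9 normalized counts in controls and 7396 ± 55.1 with dexamethasone (SD, n = 3), 0.54 on the log2 scale and not called (limma adjusted p = 2.67e-12; 0.34 after quantile normalization). The other 4 called higher, named after their values were seen, were Notch4 (log2 fold change 2.25), Itgb3 (1.85), Pdgfra (1.58) and Angpt2 (1.54), with limma adjusted p-values of 1.05e-11, 5.07e-22, 9.48e-21 and 1.29e-09. The genes called lower were the signalling proteins Wnt4 and Bmp4 and the Notch effector Hey1. Wnt4 had 1535, 1703 and 1584 normalized counts in controls and 88.7, 61.04 and 106 with dexamethasone (limma adjusted p = 5.55e-20). Bmp4 was 8.56-fold and Hey1 16.8-fold lower (limma adjusted p = 1.7e-25 and 1.63e-12). The abundant Itgb1 and Pdgfrb had log2 fold changes of 0.11 and -0.08 (limma adjusted p = 0.0199 and 0.0849), which depended on the scaling, at 0.0006 and -0.19 with equal library totals and -0.27 for Pdgfrb after quantile normalization.

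The hedgehog genes, which act upstream of Foxf1, Foxf2 and Foxl1 in mesenchyme, included 8 tested of 14 listed. Of these 3 were called lower and 5 not, beside 10.6% of all genes tested called lower. Their median log2 fold change was -0.28 against 0.001 for all genes. The co-receptors Cdon and Gas1 and the receptor and target Ptch1 fell. Cdon had 20154, 21189.5 and 21016 normalized counts in controls and 5156, 4762 and 4826 with dexamethasone (log2 fold change -2.08, limma adjusted p = 2.35e-24). Ptch1 went from 5144 ± 161 to 1693 ± 95.7 and Gas1 from 6738 ± 454 to 2522 ± 211 normalized counts (SD, n = 3; limma adjusted p = 1.71e-20 and 4.57e-18). Opposite-strand Gm48488 covers 19.9% of the exon bases of Gas1. Smo and Gli3, the signal transducer and a transcription factor of the pathway, had log2 fold changes of 0.05 and 0.06 (limma adjusted p = 0.256 and 0.144), which turned to -0.07 and -0.06 with libraries scaled to the same total. The remaining 3, named after their values were seen, were Gli1, Sufu and Boc, with log2 fold changes of 0.79, 0.20 and -0.61 (limma adjusted p = 3.71e-05, 0.000208 and 2.48e-11), that of Sufu being 0.08 at equal library totals and 0.05 after quantile normalization. The ligand genes Ihh and Dhh had means under 10 and were not tested.

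Among 14 partners and corepressors described for Foxp proteins, 13 were tested, with 1 called higher, 1 lower and 11 not. Of all genes tested 11.7% were called higher and 10.6% lower. The median log2 fold change of the 13 was 0.211 against 0.001 for all genes. The pair that was called belongs to the Runx family. Runx1, of blood and cartilage, had 4123, 4111 and 4288 normalized counts in controls and 12041, 11682 and 11652 with dexamethasone (log2 fold change 1.498, limma adjusted p = 6.15e-22). Runx2, the osteoblast regulator, had 14790.0, 15482 and 15632 in controls and 4823, 4443 and 4358 with dexamethasone (log2 fold change -1.75, limma adjusted p = 2.42e-22). The groups of neither gene overlapped. Cbfb, the common partner of Runx proteins, Ctbp1 and Gatad2a, both corepressors, and the deacetylase Hdac2 had log2 fold changes of 0.43, 0.66, 0.47 and 0.11 (limma adjusted p = 5.22e-11, 3.48e-14, 3.23e-10 and 0.00752), those of Cbfb and Gatad2a being 0.21 and 0.28 after quantile normalization, and that of Hdac2 turned to -0.01 with libraries scaled to the same total and -0.06 after quantile normalization.

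Markers of other cell types that express these forkhead genes were set beside the members, and their part in the result was not tested. Of 12 endothelial markers, 10 were measured, 6 were tested and 1, Esam, was called higher, beside 11.7% of all genes tested. Esam had 10.1, 20.6 and 12.3 normalized counts in controls and 30.5, 37.1 and 31.4 with dexamethasone (limma adjusted p = 0.00132). The summed level of the endothelial markers was 463, 484 and 491 normalized counts in controls and 621, 604 and 569 with dexamethasone, mostly from Kdr (log2 fold change 0.25, limma adjusted p = 0.00812; 0.14 at equal library totals). The defining genes Cdh5 and Tie1 were at or under 3 reads in all 6 libraries, and Emcn and Sox17 were not analysed here. Pecam1 had 10.1, 17.6 and 19.3 normalized counts in controls and 29.6, 28.3 and 20.9 with dexamethasone, and Plvap had 69.8, 80.2 and 60.6 in controls and 94.4, 108 and 80.2 with dexamethasone (limma adjusted p = 0.0419 and 0.0322), and neither was called. The other 2 tested, named after their values were seen, were Tek, with means of 12.62 in controls and 8.11 with dexamethasone (log2 fold change -0.75, limma adjusted p = 0.146; -0.33 without dexamethasone replicate 3), and Egfl7, with 13.63 and 14.77 (limma adjusted p = 0.802), whose log2 fold change of 0.12 turned to -0.24 without control replicate 1 and -0.19 without dexamethasone replicate 3. Of 5 lymphatic endothelial markers 2 were tested and not called, Pdpn (means of 8164.5 and 13073.6 normalized counts, limma adjusted p = 2.8e-14) and Reln (8.57 and 14.03, limma adjusted p = 0.132). Prox1 and Flt4 were at or under 3 reads in every library, Lyve1 had 0, 1 and 1 reads in controls and 9, 2 and 5 with dexamethasone and was not tested, and the summed level, nearly all from Pdpn, was 7998, 8518 and 8013 in controls and 13523, 12574 and 13186 with dexamethasone.

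Pericyte and smooth muscle genes, which accompany Foxs1 and Foxf2 in vessel walls, fell where they were called. Of 10 listed, 9 were measured, 8 tested and 3 called lower, beside 10.6% of all genes tested. The median log2 fold change was -0.486, and the summed level was 172349, 181801 and 178733 in controls and 47234, 43269.8 and 45192 with dexamethasone. The lower sum came from Acta2, without which it was 31654, 33488 and 32988 in controls and 34751, 31331 and 32267 with dexamethasone. Acta2 itself had 140695, 148313 and 145745 normalized counts in controls and 12483, 11939 and 12924 with dexamethasone (limma adjusted p = 3.8e-28). Notch3 and Mcam were 2.41-fold and 2.11-fold lower (limma adjusted p = 5.86e-17 and 5.35e-06), and Mcam was no longer called without dexamethasone replicate 2 (log2 fold change -0.94) or after quantile normalization (-0.97). The other 5 tested were not called. Cspg4 and Pdgfrb had log2 fold changes of 0.43 and -0.08 (limma adjusted p = 5.64e-10 and 0.0849), that of Cspg4 being 0.23 after quantile normalization. Rgs5, Tagln and Myh11, named after their values were seen, had 0.72, 0.06 and -0.89 (limma adjusted p = 0.0511, 0.787 and 0.0102), with every dexamethasone library above the controls for Rgs5. Genes on the opposite strand, Gm48529 and Pcsk7, cover 67.86% of the exon bases of Tagln, so its reads may be mixed with theirs. The value of Tagln turned to -0.05 at equal library totals and -0.13 without dexamethasone replicate 1, where that of Myh11 was -0.57, and Myh11 was called at equal library totals and without control replicate 3 or dexamethasone replicate 3. Their part in the result for Foxs1 was not tested.

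The other lists were mixed. Of 8 haematopoietic markers 5 were tested, and Cd53 and Itgb2 rose, from 15.7 ± 3.99 to 283 ± 24.8 and from 54.6 ± 10.2 to 504 ± 26.2 normalized counts (SD, n = 3; limma adjusted p = 6.6e-16 and 4.91e-17), whereas Laptm5 and Coro1a were called lower, at -1.49 and -1.77 on the log2 scale (limma adjusted p = 0.00235 and 0.00307), Coro1a not without the mean-variance trend (limma adjusted p = 0.0634) and at -1.007 without dexamethasone replicate 3, which had 1 read. The summed level of the list, with Itgb2 the most abundant with dexamethasone, was 148, 135 and 113 in controls and 796.5, 831 and 850.0 with dexamethasone, and the pan-leukocyte gene Ptprc had a mean of 2.48 in controls and 4.71 with dexamethasone. Of 7 adipocyte markers 2 were tested. Fabp4 was at or under 3 reads in each control and had 1413, 1409 and 1521 normalized counts with dexamethasone, at least 493-fold higher (limma adjusted p = 2.84e-23), while Pparg had 18.4, 20.6 and 26.4 in controls and 20.03, 25.1 and 19.8 with dexamethasone (limma adjusted p = 0.997), with a sign that turned under quantile normalization and without single libraries, and Lep and Cidec were at or under 3 reads throughout. The other 3, not tested, were Cfd, with 1, 4 and 3 reads in controls and 19, 14 and 15 with dexamethasone, Adipoq with 9, 3 and 1 against 2, 1 and 1, and Plin1 with 0, 2 and 6 against 2, 0 and 1. The summed level of the adipocyte list, nearly all from Fabp4, was 31.2, 32.3 and 38.7 in controls and 1456, 1452 and 1563 with dexamethasone.

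Of 7 chondrocyte markers 4 were tested. Sox9, the cartilage regulator, and Col2a1, its collagen target, rose from 4609 ± 246 to 17406 ± 1156 and from 1517 ± 23.4 to 5687 ± 428 normalized counts (SD, n = 3; limma adjusted p = 4.04e-22 and 1.15e-21), Comp fell by 1.23 on the log2 scale (limma adjusted p = 3.17e-07), and Chad had means of 31.5 and 35.0 (limma adjusted p = 0.499), its log2 fold change turning to -0.0285 without control replicate 3. Their summed level, with Sox9 the most abundant, was 6000.5, 6431 and 6434 in controls and 24995, 22397 and 22153 with dexamethasone, while Col9a1 was at or under 3 reads in every library and Matn3, not tested, had 8, 12 and 12 reads in controls and 0, 2 and 3 with dexamethasone. Of 8 tendon and fibroblast markers 4 were tested, and the tendon factor Scx fell from 1206 ± 94.97 to 151 ± 14.9 while Cd34 rose from 4128 ± 188 to 8503 ± 176 normalized counts (SD, n = 3; limma adjusted p = 3e-20 and 6.63e-18). Mkx and Pi16 had log2 fold changes of 0.44 and 0.02 (limma adjusted p = 6.55e-07 and 0.959), that of Pi16 turning to -0.0856 at equal library totals and also below 0 without control replicate 2 or dexamethasone replicate 1, Dpp4 was at or under 3 reads in every library, and Tnmd and Thbs4 were not analysed here. The summed level, mostly Cd34, was 5928, 6501 and 6440.4 in controls and 9927, 9734 and 10149.9 with dexamethasone. Cd34 was not called with libraries scaled to the same total (log2 fold change 0.93) or after quantile normalization (0.85). The part of these cell types in the members' values was not tested.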

How the data were processed

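Libraries were made with a stranded mRNA kit. The authors used STAR 2.7.10a for alignment to GRCm39 (build per the labels) and gene counting, and DESeq2 1.36.0 for normalization. The deposited values are a normalized signal, gene counts divided by a size factor of each library, and 100.0% were whole multiples of the value of 1 read (within 0.001 reads), which gave back the reads. No column was left out. The annotation release and strand setting are not given in the sources used here. GENCODE M21 gave symbols for 28087 of 29616 genes, exon lengths, overlaps and gene order.

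Genes averaging 10 normalized counts or more were fitted as log2(normalized count + 1) with limma 3.58.1 in R 4.3.3 (trend, Benjamini-Hochberg over all 17442 genes, genome-wide), so that log2 fold changes understate those of low genes. Calls needed an adjusted p under 0.05 together with an absolute log2 fold change of 1 or more. On recovered reads, edgeR 4.0.16 called 3944 genes and DESeq2 1.42.0 called 3870, beside 3894 with limma. The limma, edgeR and DESeq2 fits were tested on simulated data with a far smaller share of changed genes than was called here. That test therefore does not bear on the scaling of these libraries. A gene was at the floor at 3 reads or fewer in each library of a group (2.64 to 3.49 normalized counts), which covers counting error only. No replicate pair was identical, and their chi-square per degree of freedom was 3.52 to 29.6.

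Named genes were all 10 members, every other forkhead gene called and the 4 with the highest means, in each list the 4 with the highest mean and up to 4 called genes with the largest change, the 4 nearest genes on each side of both clusters and the genes between them, and the 5 genes most like Foxc2. Other tested genes are marked in the text as named after their values were seen, which also holds for the untested ones, not all of which are named. The members and lists were chosen with earlier results of these data known. Alternatives changed the pseudocount, filter, scaling, trend, tool, call rule, replicate block, gene length, measure of likeness or left out a library.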

Additional observations from a re-analysis of the deposited data

How the results depend on the processing

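Over 18 alternatives to the fit, 300 of 324 counts stayed within 1.5 times the value reported. With a mean of at least 100, 2170 genes were called (1350 higher, 820 lower), since fewer genes were tested, with 1 of the other forkhead genes (1 higher, 0 lower) and 0 members lower. Such a mean was reached by 12020 genes besides Foxc2. Foxd1 and the other forkhead genes Foxd2, Foxn1, Foxp3 and Foxq1 had lower means and were not in that fit. Foxd1 also left the fit with at least 10 in every library, which left 0 members lower. By the adjusted p alone, a wider rule by construction, 12645 of all 17442 genes tested were called (6497 higher, 6148 lower). Beside that share, 8 of the 9 members tested were called (5 higher, 3 lower), from which nothing is read. Beside the same share, the rule called 13 of the 16 other forkhead genes tested (8 higher, 5 lower). It called 8 of the 16 tested genes downstream of Foxc1 or Foxc2 higher. It also called 6 of the 8 hedgehog genes tested (2 higher) and 11 of the 13 Foxp partners tested (9 higher, 2 lower). Nothing is read from these counts either. With no filter on low values 2 other forkhead genes were lower.

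Without each library in turn, 3888 to 3922 genes were called, 1953 to 2099 higher and 1795 to 1942 lower, and the counts stayed the same for members (4), other forkhead genes (5), genes downstream of Foxc1 or Foxc2 (8), hedgehog genes (3) and Foxp partners (2). Over all alternatives the log2 fold change of Foxc2 ran from 3.21 to 3.39, Foxs1 from 3.76 to 3.91, Foxl1 from 2.68 to 2.92, Foxd1 from -1.86 to -1.16 and Foxc1 from -0.28 to -0.07. With the same total 1775 genes were called higher and 2163 lower.

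Log2 fold changes of small size reversed. Of the members this was Foxf1, at -0.11 with the same total and -0.15 after quantile normalization, and nearer to 0 but below it with edgeR, with DESeq2 and without control replicate 1, control replicate 3 or dexamethasone replicate 1. Among other named genes these were, with the same total, Fendrr (-0.0262), Gli3 (-0.0555), Hdac2 (-0.0061), Pi16 (-0.0856), Smo (-0.0653) and Tagln (-0.0484). After quantile normalization they were Foxk1 (-0.041), Gli3 (-0.15), Hdac2 (-0.0618), Pparg (0.11) and Smo (-0.17). Leaving out a library gave -0.0285 to 0.51 for Chad, -0.24 to 0.38 for Egfl7, -0.14 to 0.11 for Pi16, -0.11 to 0.14 for Pparg and -0.13 to 0.17 for Tagln, whose sign rests on single libraries. The cause was not tested. Low counts limit Foxd1 and Foxp2 most.

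With the replicate number as a block (replicate block), 3897 genes were called (2035 higher, 1862 lower), 3891 of them shared with the fit without it, and no call in any of the 13 lists changed. No pairing by number was visible, but 3 libraries per group cannot exclude it. Same-numbered libraries had correlations of -0.1, -0.105 and -0.02 between their deviations from the group means over all genes, and no library was most like its own number.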
